A study of Mus musculus with 15 samples.

Results

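This account covers genes for the extracellular matrix of the liver and for the cells that make it: collagens, matrix proteins, the enzymes that crosslink or degrade matrix, contractile and cytoskeletal proteins, growth factors with their receptors, and markers of hepatic stellate cells and pericytes. It covers 36 genes chosen by name, and each gene takes all probe sets that the array annotation gives to its single symbol. Of them 35 had such a probe set, with 83 probe sets of 45101 on the array, and Fbn1 was not analysed here. The brightest probe set of a gene over the 15 arrays stands for it, as for all 18193 genes of the array. No gene of the 35 was removed for a low signal.

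Liver RNA was measured on Affymetrix mouse 430 2.0 arrays in 15 male mice, 1 mouse per array and 5 mice in each of 3 groups. C57BL/6J mice on normal chow were gavaged with distilled water. The KKAy model group, a diabetic and obese strain carrying the yellow agouti allele, was fed a high-fat diet and gavaged with distilled water. The XKA-H group was KKAy mice on the same high-fat diet given the herbal preparation Xiao-Ke-An (XKA) by gavage at 1.5 g/kg, each day for 32 days. Gavage began at 10 weeks of age, and the C57BL/6J mice were of matching age. The strains came from different suppliers, so strain, diet and supplier cannot be told apart in any comparison with C57BL/6J mice. Whole liver was used, so fewer cells of a type and less RNA per cell cannot be told apart either. All signals below are the deposited linear intensities scaled so that each array has a median of 1000, with means ± SD of n = 5, and all differences are in log2 with the standard error (SE). A gene was called when the adjusted p of limma across all 18193 genes, with Benjamini-Hochberg adjustment, was under 0.05. Signals of different genes come from different probes and are not compared with each other.

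Hepatic stellate cells lie between the hepatocytes and the sinusoidal endothelium, where they store vitamin A as retinyl esters. On activation by transforming growth factor beta and platelet-derived growth factor they lose this store, take up smooth muscle actin and secrete fibrillar collagen, which lysyl oxidases crosslink and metalloproteinases degrade under the control of tissue inhibitors (TIMPs). Portal fibroblasts, vascular smooth muscle cells, pericytes and sinusoidal endothelium make parts of the same matrix, so few of these genes belong to 1 cell type. The stellate cell genes Lrat, Reln, Ecm1 and Dcn had signals above the array median of 1000 on all 15 arrays. Among the others used as stellate cell or pericyte markers, Lum, Pdgfrb, Rgs5 and Hgf had means above it in every group. Des and Ngfr had a mean below it in at least 1 group. Of the 35 genes, 25 had a mean above 1000 in every group, 10 were below it in at least 1 group, and Col15a1, Lox and Thbs1 were below it in every group.

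The promoters of 3 genes that were higher in the KKAy model group, with probe sets above the array median, are shown because these genes serve different roles: a fibrillar collagen, a contractile protein and a pericyte regulator. They are the 250 bases before the start of each gene, 5′ to 3′ on the gene's strand, from RefSeq on GRCm38.p6, at chr1:45311288-45311537 on the plus strand for Col3a1, chr19:34255374-34255623 on the minus strand for Acta2 and chr1:169655251-169655500 on the plus strand for Rgs5. Capitals mark each match on either strand to TATAAA, the core of a TATA box, to CCAAT, the CCAAT box, to GGGCGG, which Sp1 family factors bind, and to CAGAC, which Smad proteins bind.
Col3a1: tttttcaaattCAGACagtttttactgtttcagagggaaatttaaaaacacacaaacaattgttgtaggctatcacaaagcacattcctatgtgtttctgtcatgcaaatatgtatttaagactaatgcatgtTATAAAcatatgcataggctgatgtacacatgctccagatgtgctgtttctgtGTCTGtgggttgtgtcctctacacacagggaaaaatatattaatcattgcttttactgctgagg
Acta2: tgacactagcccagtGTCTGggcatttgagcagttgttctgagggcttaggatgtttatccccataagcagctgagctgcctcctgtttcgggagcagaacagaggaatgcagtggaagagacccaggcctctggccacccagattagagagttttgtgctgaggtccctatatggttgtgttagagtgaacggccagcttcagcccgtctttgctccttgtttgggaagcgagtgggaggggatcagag
Rgs5: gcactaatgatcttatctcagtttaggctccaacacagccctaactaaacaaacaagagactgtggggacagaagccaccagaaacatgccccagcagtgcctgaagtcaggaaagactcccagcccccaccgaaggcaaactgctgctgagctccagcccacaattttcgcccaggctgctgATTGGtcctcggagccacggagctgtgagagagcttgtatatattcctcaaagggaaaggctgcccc
Col3a1 held TATAAA from 117 to 112 bases before its start and CAGAC on both strands, Acta2 held CAGAC on the opposite strand, and Rgs5 held CCAAT on the opposite strand. No motif was found in all 3 promoters. In windows of this length, TATAAA was found in 12.4% of 32851 promoters, CCAAT in 33.8%, GGGCGG in 32.7% and CAGAC in 42.2%. Of the 35 genes, 24 had an entry, and 3, 9, 14 and 9 of the 24 held these motifs in the same order. The percentages count promoter entries, while these counts are of genes with the motif in any entry. These matches describe the letters in the window only.

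In the KKAy model group, 6 of the 35 genes were higher than in C57BL/6J mice and none was lower: Rgs5, Acta2, Col3a1, Col4a1, Col4a2 and Lox. This is 17.1% of the genes, beside 13.0% of all 18193 genes called in this comparison, 10.6% higher and 2.43% lower. This split over all genes moved with the scaling, from 1924 higher and 442 lower to 1137 and 1027 in the values as deposited and 1602 and 1102 after quantile normalization, where the 35 genes gave 3 higher and 1 lower and 5 higher and 1 lower. The median difference over the 35 genes was 0.23, beside 0.15 over all genes, and 23 of 35 lay above 0, beside 62.8% of all genes. At an unadjusted p under 0.05 there were 12, beside 25.2% of all genes, and the groups did not overlap for Rgs5, Acta2 and Lox, beside 8.19% of all genes higher without overlap. With XKA-H, no gene of the 35 differed from the KKAy model group by limma at the adjusted threshold, beside 0.176% of all genes. There 7 had an unadjusted p under 0.05, beside 8.61%. The methods' Dunnett comparisons without adjustment across genes passed 4 of the 35, beside 944 of all 18193 genes. The median difference of XKA-H from the KKAy model group was -0.27, beside -0.06 over all genes. Of the 35 genes 7 lay above 0, beside 41.6% of all genes. Both comparisons use the same 5 KKAy model arrays, so their opposite signs are not independent of each other. Between the XKA-H and C57BL/6J groups, Rgs5 and Lox were higher and Loxl1 was lower, which is 3 of 35 genes (8.57%) beside 7.48% of all genes, 5.53% higher and 1.95% lower, with a median of -0.05 beside 0.10. There 5 genes had an unadjusted p under 0.05, beside 19.4%, and Rgs5 was higher and Loxl1 lower without overlap of the groups, beside 5.04% and 1.99% of all genes.

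**Figure D1:**
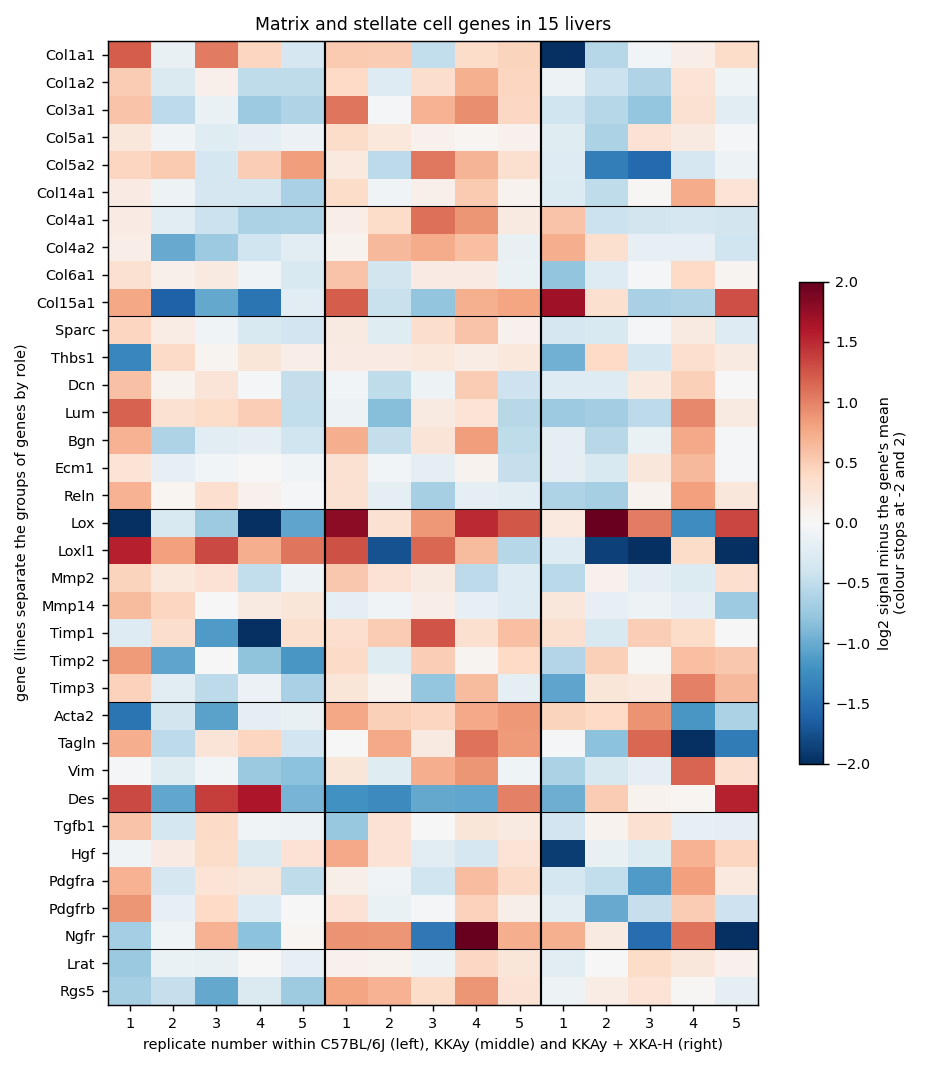
Each row is a gene, each column an array, and the colour is the log2 signal minus the gene's mean over the 15 arrays, with red above and blue below, in the order of the roles used in the text. Replicate 1 of the C57BL/6J group is red for most collagens and proteoglycans, and no column block is of one colour throughout.

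Single arrays were the extreme of their group for many of these genes at once. C57BL/6J replicate 1 was the highest of its group for 25 of the 35 genes, XKA-H replicate 4 for 18 and KKAy model replicate 4 for 14, while KKAy model replicate 2 and XKA-H replicate 1 were each the lowest of their group for 14. The shares over all genes were not counted. A high C57BL/6J replicate 1 was not particular to these genes. Its summed signal of hepatocyte markers was 8720695, against 6612185 at most on the other arrays of its group. For macrophage markers it was 238088, below the 343336 of replicate 2. Without C57BL/6J replicate 1, 8 genes in place of 6 were higher in the KKAy model group. The 2 added were Col1a2 (adjusted p = 0.049) and Timp2 (adjusted p = 0.0224), and the median difference of the 35 genes was then 0.30. The middle coefficient of variation over the genes was 30.6% in C57BL/6J, 26.7% in untreated KKAy and 35.3% in XKA-H livers. It reached 76.6% for Col15a1, 90.6% for Des and 92.9% for Tagln in these groups.

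Of the fibrillar and fibril-associated collagens, 1 of 6 rose in the KKAy model group and none of 6 passed the limma test with XKA-H, though 3 had an unadjusted p under 0.05. Col3a1, the chain of type III collagen that forms the fine reticular fibres of the liver, had signals of 16051, 7467, 9766, 6510 and 7101 in the C57BL/6J livers, 22648, 10509, 17439, 20408 and 14318 in the KKAy model livers and 8150, 7282, 6279, 13312 and 9170 in the XKA-H livers. Of the KKAy model livers, replicates 2 and 5 fell within the range of the C57BL/6J livers, whose replicate 1 was well above the rest. The mean was 17064 ± 4822 in the KKAy model group against 9379 ± 3929, a difference of 0.90 (SE 0.25, 1.86-fold, adjusted p = 0.0207). In the XKA-H livers the mean was 8838 ± 2719, -0.95 (SE 0.25) from the KKAy model group with an adjusted p of 0.15 and a 95% interval of -1.47 to -0.43, and -0.05 from the C57BL/6J group. The difference between strains was positive under all 26 alternatives and passed in 18 of them. It missed the threshold in 5 of 15 runs without 1 array, namely without KKAy model replicate 1 or 4 or C57BL/6J replicate 2, 4 or 5, with adjusted p up to 0.0635, and also in the values as deposited (adjusted p = 0.0662).

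Col1a1 and Col1a2 encode the chains of type I collagen, the main collagen of scar tissue. Col1a1 had signals of 1754, 686, 1572, 1029 and 601 in the C57BL/6J livers, 1095, 1085, 541, 980 and 1038 in the KKAy model livers and 70, 514, 735, 830 and 983 in the XKA-H livers, near the array median and with wide overlap of all groups. Its means were 1128 ± 518, 948 ± 232 and 626 ± 354 in that order, and XKA-H replicate 1 stood alone at 70. The difference of untreated KKAy from C57BL/6J mice was -0.17 (SE 0.58, 95% interval -1.38 to 1.05, adjusted p = 0.903). Col1a2 lay 0.47 (SE 0.21, adjusted p = 0.178) from the C57BL/6J level in the KKAy model group and -0.52 (SE 0.21, adjusted p = 0.49) from the KKAy model level with XKA-H. Only this 1 of its 3 probe sets had these signs, and the others were below the array median. Under the 26 alternatives these differences ran from -0.21 to 0.63 and from -0.66 to 0.33. The chains of type V collagen, which starts fibril assembly, and of type XIV collagen, which binds to fibrils, did not pass either. Col5a1 and Col14a1 differed by 0.23 and 0.46 between the strains. Col5a2 had means of 1658 ± 444, 1654 ± 632 and 802 ± 336 in C57BL/6J, untreated KKAy and XKA-H mice. That was -1.07 (SE 0.37, adjusted p = 0.35) from the KKAy model group and -1.12 (adjusted p = 0.0741) from the C57BL/6J group.

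Of the basement membrane and other collagens, 2 of 4 rose, and both were chains of type IV collagen, the network-forming collagen that lies under endothelium and around vessels and bile ducts. Col4a1 had signals of 8016, 6122, 5278, 4606 and 4648 in the C57BL/6J livers, 7820, 9190, 15358, 13144 and 8109 in the KKAy model livers and 10660, 5287, 5564, 5640 and 5560 in the XKA-H livers. The KKAy model livers overlapped the C57BL/6J livers only through replicate 1 of each group, and 4 of 5 XKA-H livers lay within the C57BL/6J range while replicate 1 stood at 10660. The difference was 0.88 (SE 0.22, 1.84-fold, adjusted p = 0.0124) in the KKAy model group and -0.72 (SE 0.22, adjusted p = 0.276, 95% interval -1.19 to -0.25) with XKA-H against it. Without XKA-H replicate 1 the latter was -0.91 (adjusted p = 0.0650). The call between strains was lost in the values as deposited (0.69, adjusted p = 0.0509) and with the mean of the 2 probe sets (1.12, adjusted p = 0.0807).
Col4a2, the partner chain in the same triple helix, had signals of 5915, 2671, 3254, 4108 and 4636 in the C57BL/6J livers, 5663, 8452, 9004, 8199 and 4875 in the KKAy model livers and 8924, 6705, 4798, 4831 and 4090 in the XKA-H livers. Its KKAy model and C57BL/6J livers overlapped through 2 arrays of the KKAy model group. The difference was 0.83 (SE 0.24, 1.77-fold, adjusted p = 0.0287) and -0.32 (SE 0.24, adjusted p = 0.758) with XKA-H. It stayed positive under all 26 alternatives but passed in 17, and was lost without KKAy model replicate 2, 3 or 4, or C57BL/6J replicate 2, 3 or 4 (adjusted p up to 0.0810), and in the values as deposited (adjusted p = 0.0852). KKAy model replicate 3 and XKA-H replicate 1, where the acute phase genes were highest of their groups, were also the highest array of their group for Col4a1 and Col4a2. Without both arrays the differences between strains were 0.74 for Col4a1 and 0.74 for Col4a2, and Col4a2 no longer passed (adjusted p = 0.0517). The part of the acute phase response in these values was not tested.
Col6a1, a chain of the microfibrillar type VI collagen, differed by 0.04 between the strains. Col15a1, from the basement membrane zone of vessels, was below the array median and had a 95% interval of -0.21 to 2.21 (SE 0.58, adjusted p = 0.306).

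**Figure D2:**
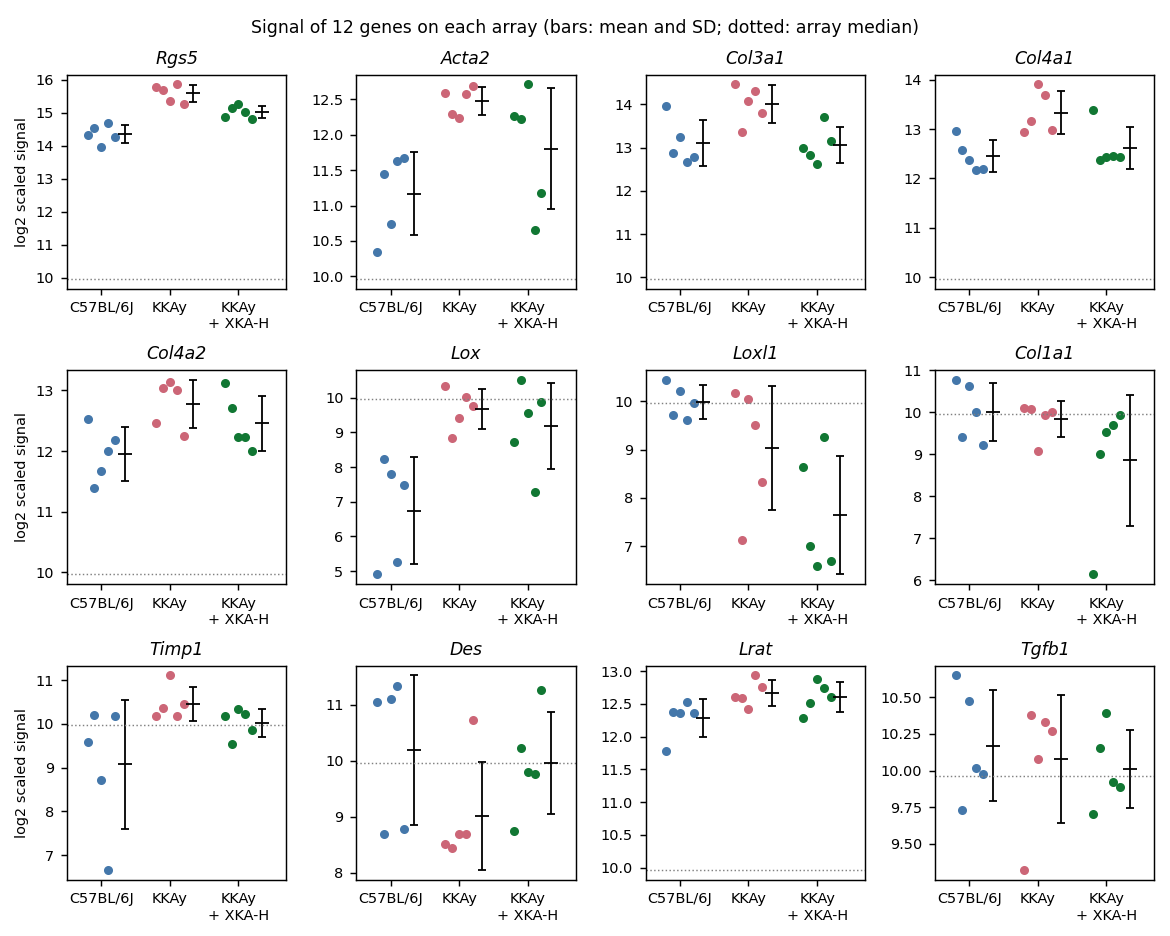
Each panel is a gene, each point the log2 scaled signal of 1 array in replicate order, with the mean and SD of the group beside it and the array median as a dotted line, on a separate vertical axis per gene. Rgs5, Acta2 and Lox show no overlap between the C57BL/6J and KKAy groups, and the XKA-H points of Rgs5 lie between them.

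Of the 7 matrix proteins and proteoglycans measured, none passed the limma test in any of the 3 comparisons, and none had an unadjusted p under 0.05. Decorin (Dcn), lumican (Lum) and biglycan (Bgn) are small leucine-rich proteoglycans that bind collagen fibrils, and their differences between untreated KKAy and C57BL/6J mice were -0.19 (SE 0.20), -0.58 (SE 0.32) and 0.31 (SE 0.29). Sparc, a collagen-binding glycoprotein, differed by 0.23 (adjusted p = 0.455). All 3 of its probe sets were above the array median with the same sign, and 1 that does not stand for the gene passed over all probe sets. Thbs1, an activator of latent transforming growth factor beta, differed by 0.28, and Ecm1, a secreted matrix protein of stellate cells, by -0.06. Reln, a glycoprotein that marks stellate cells in the liver, differed by -0.41 (SE 0.24, adjusted p = 0.298). Its second probe set, below the array median, had the opposite sign, and under the 26 alternatives the difference ran from -0.61 to 0.42. With XKA-H against the KKAy model group these 7 genes ranged from -0.34 for Sparc to 0.16 for Reln. XKA-H replicate 4 was the highest of its group for Dcn, Lum, Bgn, Ecm1, Reln and Sparc. On that array the summed signal of 7 mesothelial markers was 25122, against 4549 to 14311 on the other arrays of its group and 10215 at most in the other groups. For 16 other stellate cell markers it was 144529, against 88615 to 129148 on the other arrays of its group and 157506 at most in the KKAy model group. The part of mesothelium or stellate cells in these values was not tested.

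Among the enzymes that crosslink or degrade matrix and their inhibitors, 1 of 7 rose in the KKAy model group. Lox, lysyl oxidase, which starts the crosslinking of collagen and elastin, had signals of 30, 301, 224, 39 and 179 in the C57BL/6J livers, 1281, 456, 680, 1039 and 874 in the KKAy model livers and 426, 1463, 751, 157 and 935 in the XKA-H livers. All KKAy model livers were above all C57BL/6J livers, and the XKA-H livers overlapped both groups. The difference was 2.93 (SE 0.69, adjusted p = 0.00778) in the KKAy model group and 2.45 (SE 0.69, adjusted p = 0.0346) with XKA-H against C57BL/6J mice. No fold is given for Lox, because its C57BL/6J signals were far below the array median and no detection call was used. The means were below the array median in all 3 groups, and the other probe sets of Lox differed by 0.99 and -0.19 between the strains with adjusted p of 0.396 and 0.924. With the mean of the 3 probe sets in place of the brightest, Lox differed by 1.24 (adjusted p = 0.0612). Its difference between the XKA-H and C57BL/6J groups missed the threshold without XKA-H replicate 2, 3 or 5 or C57BL/6J replicate 1 or 4 (adjusted p up to 0.106), and in the values as deposited (adjusted p = 0.0569).

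Loxl1, a lysyl oxidase relative that acts on elastin, was lower in the XKA-H group than in C57BL/6J mice. Its signals were 1390, 833, 1178, 783 and 996 in the C57BL/6J livers, 1143, 141, 1050, 730 and 320 in the KKAy model livers and 396, 129, 96, 613 and 104 in the XKA-H livers, with all XKA-H livers below all C57BL/6J livers and the KKAy model livers spread over both ranges. The difference between the XKA-H and C57BL/6J groups was -2.34 (SE 0.62, adjusted p = 0.0235), between untreated KKAy and C57BL/6J mice -0.95 (adjusted p = 0.376) and between XKA-H and untreated KKAy mice -1.39 (adjusted p = 0.538). The first was lost without XKA-H replicate 2, 3 or 5 or C57BL/6J replicate 1 or 3, with adjusted p up to 0.0656, and with the mean of its 2 probe sets (adjusted p = 0.182). The mean in the XKA-H group was 268 ± 229, below the array median.

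Timp1, an inhibitor of metalloproteinases that rises in injured liver, had signals of 775, 1185, 423, 101 and 1157 in the C57BL/6J livers, 1163, 1312, 2210, 1156 and 1405 in the KKAy model livers and 1152, 745, 1293, 1195 and 925 in the XKA-H livers. The highest was KKAy model replicate 3, and 3 of the 5 C57BL/6J livers were below every KKAy model liver. The difference was 1.38 (SE 0.52, adjusted p = 0.0903) and, with XKA-H against the KKAy model group, -0.43 (SE 0.52, 95% interval -1.51 to 0.65). Without C57BL/6J replicate 2 it passed (adjusted p = 0.0499). Timp2 and Timp3, related inhibitors, differed by 0.65 (SE 0.32, adjusted p = 0.219) and 0.21 (SE 0.32, adjusted p = 0.758) between the strains. Mmp2, a gelatinase, differed by -0.03, and Mmp14, the membrane enzyme that activates it, by -0.40 (SE 0.16, adjusted p = 0.112). Mmp14 was called lower in the KKAy model group in the values as deposited (adjusted p = 0.00553) and after quantile normalization (adjusted p = 0.00587), 2 alternatives that place the median of all genes at -0.04 and 0.04 in place of 0.15. Between the XKA-H and C57BL/6J groups Mmp14 was not called in the main fit. It was called lower there in 5 of 26 alternatives, with the smallest adjusted p of 0.00429 in the values as deposited.

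Of the 4 cytoskeletal and contractile genes, Acta2 rose. Acta2 encodes smooth muscle alpha actin, the usual marker of activated stellate cells and myofibroblasts and a major protein of vessel walls. Its signals were 1304, 2789, 1716, 3151 and 3248 in the C57BL/6J livers, 6123, 5021, 4838, 6101 and 6561 in the KKAy model livers and 4892, 4761, 6697, 1612 and 2310 in the XKA-H livers. All KKAy model livers lay above all C57BL/6J livers. Of the XKA-H livers 3 were in or near the KKAy model range and replicates 4 and 5 were in the C57BL/6J range. The difference was 1.31 (SE 0.33, 2.48-fold, adjusted p = 0.0119) in the KKAy model group. With XKA-H it was -0.67 (SE 0.33, adjusted p = 0.603) from the KKAy model group and 0.64 (adjusted p = 0.309) from the C57BL/6J group. The call between strains was kept in all 15 runs without 1 array. The probe set has the suffix _s_at, which the manufacturer gives to probes that match more than 1 transcript, and the other 2 probe sets, both below the array median, differed by 0.34 and 1.01 without passing. With the mean of the 3 probe sets the adjusted p was 0.228.

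Tagln (transgelin, an actin-binding protein of smooth muscle) had means of 853 ± 303, 1169 ± 360 and 657 ± 610 in the C57BL/6J, KKAy model and XKA-H groups. It was lowest in XKA-H replicates 4 and 5, at 157 and 286, the same mice that were lowest for Acta2. Its differences were 0.47 (SE 0.51) between the strains and -1.25 (SE 0.51, adjusted p = 0.487) with XKA-H. Vimentin (Vim), the intermediate filament of mesenchymal cells, differed by 0.68 (SE 0.29, adjusted p = 0.136) between the strains. It was highest in XKA-H replicate 4, at 27165.
Desmin (Des), the intermediate filament used to mark rodent stellate cells, had signals of 2114, 411, 2197, 2595 and 442 in the C57BL/6J livers, 364, 348, 415, 411 and 1691 in the KKAy model livers and 428, 1201, 887, 865 and 2464 in the XKA-H livers. The values fell into a low and a high level in the C57BL/6J and KKAy model groups, with 2 of 5 C57BL/6J livers and 4 of 5 KKAy model livers at the low level. The difference was -1.18 (SE 0.61, adjusted p = 0.236), and the second probe set, below the array median, differed by 0.41.

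None of the 5 growth factor and receptor genes passed the limma test in any of the 3 comparisons, nor had an unadjusted p under 0.05. Tgfb1, the main fibrogenic cytokine, had signals of 1606, 851, 1424, 1037 and 1008 in the C57BL/6J livers, 641, 1333, 1082, 1289 and 1236 in the KKAy model livers and 834, 1138, 1346, 971 and 947 in the XKA-H livers. All groups overlapped, and the means were 1185 ± 316, 1116 ± 282 and 1047 ± 199. The difference was -0.09 (SE 0.30, 95% interval -0.73 to 0.54) between the strains and -0.07 (SE 0.30, 95% interval -0.70 to 0.57) with XKA-H. Its second probe set, below the array median, had the opposite sign in both comparisons. Under the 26 alternatives the difference between the strains ran from -0.29 to 0.71 and was never called. Hgf, hepatocyte growth factor made by stellate cells, differed by 0.06 (SE 0.40) between the strains. The receptors of platelet-derived growth factor, Pdgfra and Pdgfrb, differed by 0.06 (SE 0.32) and -0.03 (SE 0.26). Ngfr, the low-affinity neurotrophin receptor carried by stellate cells, differed by 0.83 (SE 0.68), with KKAy model livers from 384 to 4803. With XKA-H all 5 lay below the KKAy model level, from -1.15 for Ngfr to -0.07 for Tgfb1, with adjusted p from 0.658 to 0.973.

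Rgs5, a regulator of G protein signaling in pericytes and vascular smooth muscle, was the gene of this group with the smallest adjusted p. Its signals were 20528, 23696, 15996, 26758 and 19889 in the C57BL/6J livers, 56148, 53134, 42219, 59899 and 39720 in the KKAy model livers and 30310, 36079, 39294, 33313 and 28625 in the XKA-H livers. The 3 groups did not overlap at all, with every XKA-H liver between the highest C57BL/6J liver and the lowest KKAy model liver. Rgs5 rose by 1.24 (SE 0.15, 2.35-fold, adjusted p = 1.06e-05) in the KKAy model group. With XKA-H it was -0.57 (SE 0.15, 95% interval -0.88 to -0.27, adjusted p = 0.144) from the KKAy model group and 0.66 (SE 0.15, adjusted p = 0.0074) above the C57BL/6J group. The latter was lost with the mean of its probe sets (0.51, adjusted p = 0.0971), and its second brightest probe set differed there by 0.33 (adjusted p = 0.614). Groups not overlapping and lower with XKA-H were found for 0.995% of all genes. After quantile normalization the difference with XKA-H passed (adjusted p = 0.0468), and in the other limma fits it did not. Of its 4 probe sets, 3 were higher in the KKAy model group, by 1.24, 1.43 and 1.62, and the last, whose suffix _x_at marks probes that can bind unrelated transcripts, differed by -0.12.
Lrat, the enzyme that makes retinyl esters and a marker of quiescent stellate cells, had signals of 3520, 5329, 5270, 5897 and 5251 in the C57BL/6J livers, 6234, 6151, 5472, 7829 and 6957 in the KKAy model livers and 5009, 5873, 7569, 6856 and 6201 in the XKA-H livers. The C57BL/6J and KKAy model groups overlapped, and C57BL/6J replicate 1 was far below the rest. The difference was 0.38 (SE 0.16, adjusted p = 0.141) and with XKA-H -0.05 (SE 0.16, 95% interval -0.39 to 0.28). Its second probe set, also above the array median, had the opposite sign, -0.58 (adjusted p = 0.17).

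**Figure D3:**
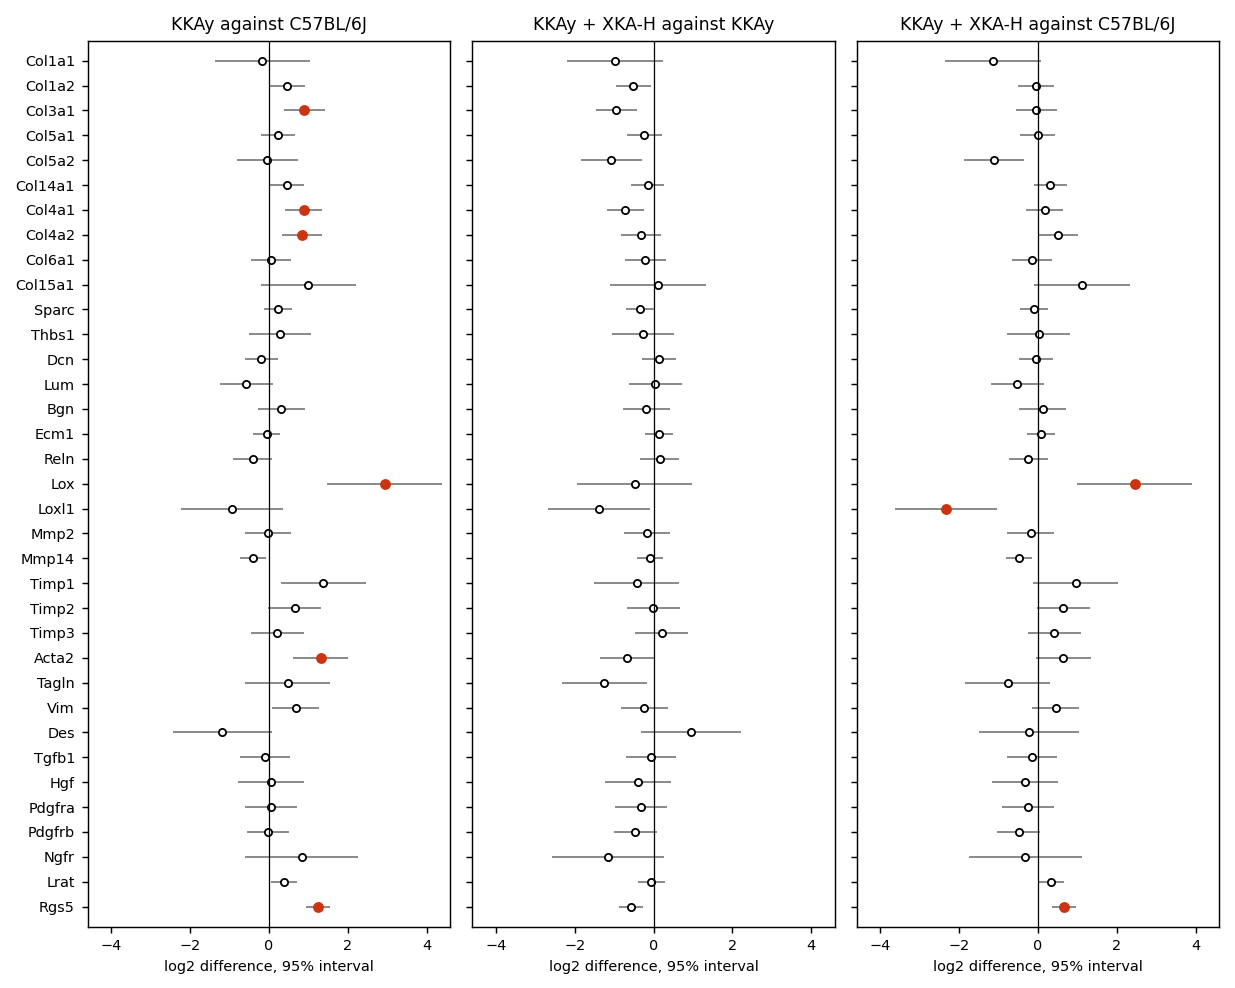
For each gene the log2 difference is drawn with its 95% interval in the 3 comparisons, filled red where the adjusted p is under 0.05 and open otherwise. Red points are 6 in the comparison of the KKAy and C57BL/6J groups, none with XKA-H against KKAy, and 3 with XKA-H against C57BL/6J.

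Since 28 of the 35 genes had several probe sets, all 83 were also tested as single features over 34945 probe sets. In the KKAy model group 10 of the 83 were higher and 1 was lower, beside 7.45% higher and 2.60% lower of all probe sets, and none passed with XKA-H by limma, beside 0.117%. Beside those of the 6 genes named above, a second probe set of Sparc, also above the array median, was higher by 0.96 (adjusted p = 0.00936). The main one of Sparc differed by 0.23. A dim probe set of Col5a1 was higher by 1.67 (adjusted p = 0.0401) while its other 2 differed by 0.23 and -0.12. The probe set that was lower belonged to Mmp14, at -1.14 (adjusted p = 0.00756), and all 3 probe sets of Mmp14 had a negative difference. The second probe sets of Col3a1 and Col4a1 had differences of the same sign as the main ones, 1.11 and 1.36, with adjusted p of 0.064 and 0.165.

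**Figure D4:**
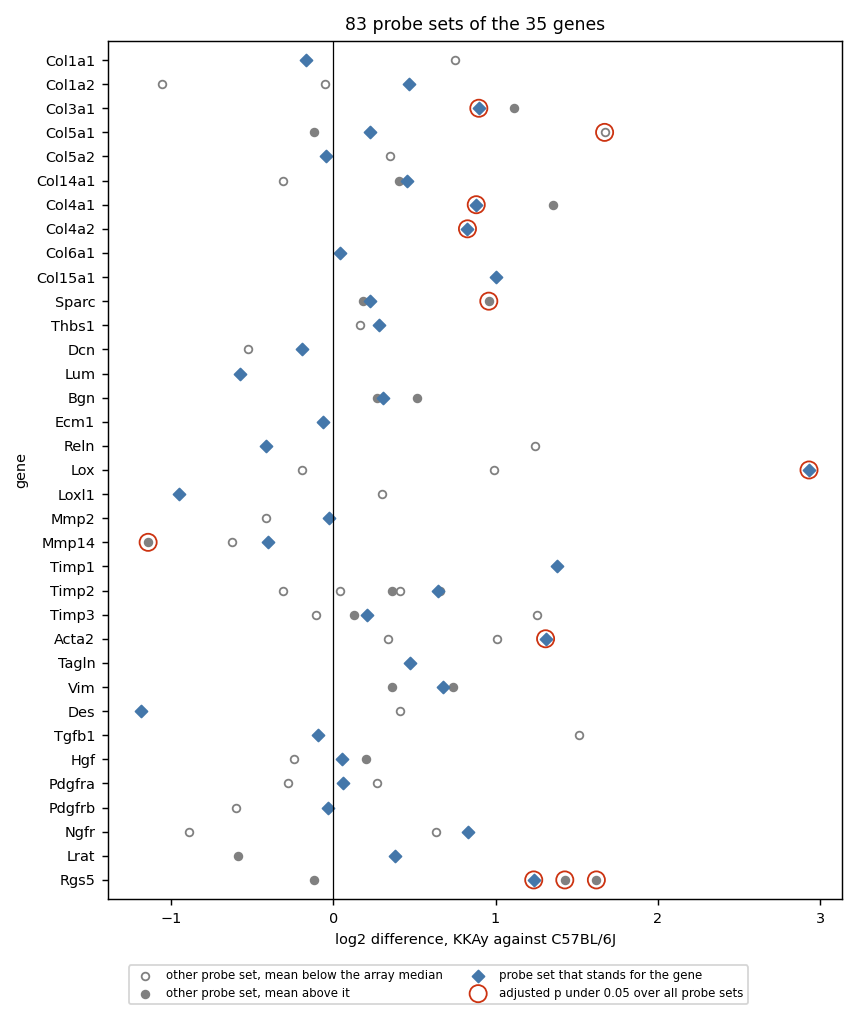
Each symbol is 1 of the 83 probe sets, placed by its log2 difference between the KKAy and C57BL/6J groups, with a diamond for the one that stands for the gene, open circles for means below the array median and red rings for an adjusted p under 0.05 over all probe sets. For Rgs5, 3 probe sets lie beyond 1 and 1 lies near 0, and for Lox the ringed probe set stands apart from the other 2.

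Other genes of the same pathways were counted by lists that share no gene with the 35. Of 31 other collagens none passed in any of the 3 comparisons by limma, and their median between the strains was 0.14. At an unadjusted p under 0.05 there were 4, 2 and 1, beside 25.2%, 8.61% and 19.4% of all genes. The share of all genes called higher between the strains was 10.6%. Of 20 genes for collagen folding and crosslinking, 2 (10%) rose in the KKAy model group. Crtap, a partner of prolyl 3-hydroxylase, rose by 0.88 (SE 0.18, adjusted p = 0.0024), and the transglutaminase Tgm2 by 0.73 (adjusted p = 0.047). Of 38 matrix glycoproteins and proteoglycans, 3 (7.89%) rose, below the share of all genes. Postn, the matricellular protein periostin, rose by 1.14 (SE 0.24, adjusted p = 0.00257), Fbln2, a fibulin of elastic fibres and vessels, by 1.03 (adjusted p = 0.00864), and Emilin1, an elastin microfibril protein, by 0.88 (adjusted p = 0.0151). Postn and Fbln2 were also higher in the XKA-H group than in C57BL/6J mice, by 0.90 and 0.93, and the basement membrane protein Nid1 was lower there (-0.82, adjusted p = 0.0106). These were 3 of the 38 (7.89%), beside 7.48% of all genes in that comparison. Of 20 metalloproteinases 1 (5%) rose in the KKAy model group, the sheddase Adam17 (0.62, adjusted p = 0.00826).

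Of 31 genes of transforming growth factor beta signaling, 3 rose in the KKAy model group, which is 9.68% beside 10.6% of all genes higher. They were the type II receptor Tgfbr2 (0.55, adjusted p = 0.0395) and the latent binding protein Ltbp1 (1.75, adjusted p = 0.0132). The third was the integrin chain Itgav (0.48, adjusted p = 0.0104), which takes part in releasing the latent factor. With XKA-H none of the 31 passed by limma and 2 had an unadjusted p under 0.05. Of 11 partners in platelet-derived growth factor, hepatocyte growth factor and neurotrophin signaling none passed between the strains, with 2 at an unadjusted p under 0.05. Of 23 integrin and focal adhesion genes 3 rose and 2 fell, which is 21.7% called beside 13.0% of all genes. Itga6, a laminin receptor chain, rose by 1.01 (adjusted p = 0.0352), and the actin crosslinker Actn4 fell (-0.52, adjusted p = 0.0126). Of 19 regulators and targets of the SRF and YAP pathways, which control actin genes, 2 rose and 2 fell (21.1% called). The cofactor Wwtr1 rose by 1.08 (adjusted p = 1.52e-04) and Cald1, a contractile regulator, by 0.52. Srf itself fell (-1.32, adjusted p = 0.0172), as did the kinase Lats2 (-0.83, adjusted p = 0.00403).

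Of 16 other stellate cell markers, 1 rose in the KKAy model group, the collectin Colec10 (0.66, SE 0.14, adjusted p = 0.00252), and the median over the list was 0.22. This is 6.25% of the list, beside 10.6% of all genes higher and a median of 0.15 over all genes. Colec11, its relative in stellate cells, differed by 0.29 and Cygb, cytoglobin of stellate cells, by 0.68, without passing. Of the 16 markers 11 lay above 0, beside 62.8% of all genes, and 5 lay below it, down to -0.81. Of 19 retinoid genes none passed between the strains by limma, with 3 at an unadjusted p under 0.05. With XKA-H, 1 of the 19 was lower than in the KKAy model group, lipoprotein lipase Lpl (-1.54, SE 0.29, adjusted p = 0.0297), a lipid enzyme listed for its expression in stellate cells that fat and muscle also make. It was the one call in that comparison among all lists counted here. Of 19 markers of portal fibroblasts and smooth muscle, 2 rose in the KKAy model group, which is 10.5%, near the share of all genes. The vascular receptor Notch3 rose by 0.77 (adjusted p = 0.0325) and the smooth muscle tropomyosin Tpm2 by 1.07 (adjusted p = 0.00999). The median of this list was 0.75, the defining genes Myh11 and Thy1 had means below the array median in the C57BL/6J group and differed by 0.75 and 1.21 without passing, and its summed signal ranged from 54379 to 66827 in C57BL/6J, 62340 to 118587 in untreated KKAy and 61673 to 127643 in XKA-H livers. How far vessel wall cells in the sampled piece contribute to Acta2, Rgs5 and the type IV collagens was not tested.

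The lists for other liver cells differed in how many of their genes passed. Of all genes, 10.6% were higher and 2.43% lower between the strains, with a median of 0.15, and 8.61% had an unadjusted p under 0.05 with XKA-H against the KKAy model group. Of 15 sinusoidal endothelial markers 2 rose in the KKAy model group, Stab2 (0.84, adjusted p = 0.00138) and Clec4g (0.66, adjusted p = 0.0306), with a median of 0.04. Of 18 macrophage markers 3 rose and Marco fell, with a median of 0.36, and the summed signal ranged from 191694 to 343336 in C57BL/6J, 231472 to 547479 in KKAy model and 182503 to 321047 in XKA-H livers. With XKA-H no macrophage marker passed, 8 had an unadjusted p under 0.05, and the median was -0.49. The monocyte-derived macrophage gene Gpnmb rose by 2.44 (adjusted p = 0.0054) between the strains, and Cd68 and Adgre1 differed by 0.58 and 0.15 without passing. Of 13 lymphocyte and neutrophil markers 1 rose, the granulocyte gene S100a8 (2.16, adjusted p = 0.00111). Of 26 acute phase genes 15 rose, with a median of 1.42. Of 9 adipocyte markers 4 rose, among them the lipid droplet genes Plin4 and Cidec that steatotic hepatocytes also express, while Adipoq, specific to adipocytes, had means below the array median in all groups. Of 17 hepatocyte markers 1 rose (Apob, 0.57), and none of 7 cholangiocyte or 7 mesothelial markers passed in any comparison by limma, with 0 and 2 at an unadjusted p under 0.05 over the 3 comparisons. The part of these cells in the values of the 35 genes was not tested.

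**Figure D5:**
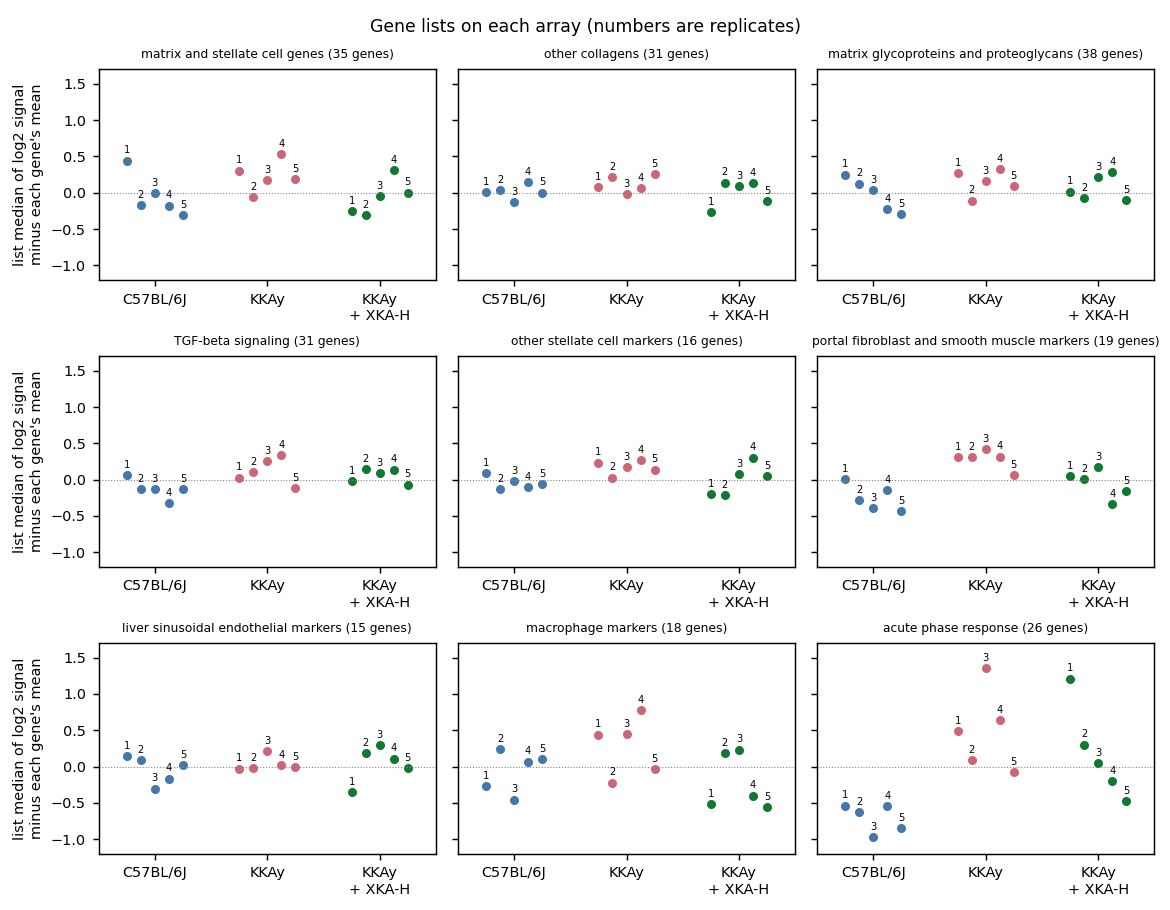
Each panel is a gene list and each point an array, numbered by replicate, at the median over the list of the log2 signal minus each gene's mean. The matrix and stellate cell genes overlap between all 3 groups, with C57BL/6J replicate 1 among the KKAy arrays, while for the acute phase list every KKAy array lies above every C57BL/6J array.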

How the data were processed

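Per the methods, the arrays were processed in ArrayTrack 3.5.0 with scaling to a median of 1000. The intensity of each probe set was deposited on a linear scale, and array medians ran from 127 to 182, so each array was scaled to 1000 here and taken to log2. The summarising of probes, the background step, slides and scans are not given in the sources used here, and no detection call was used. Blood was taken in the fasting state and mice were killed in the fed state per the methods, so whether the livers were fed or fasted is not known here. The number of arrays limits the precision, with a median SE of 0.28 over all genes.

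Of 45101 probe sets, 34958 carried 1 gene symbol, 932 several and 9211 none. After 13 control probe sets were left out, 34945 remained, 34741 of the probe sets being matched by Entrez identifier. Groups came from the sample labels. The 3 comparisons were contrasts in 1 fit of limma 3.58.1 (R 4.3.3, eBayes with an intensity trend) over 15 arrays, two-sided, with Benjamini-Hochberg adjustment over 18193 genes. The code was tested on simulated data. Other tools were the R packages mvtnorm 1.3.3, for the Dunnett comparisons of the methods, and data.table, version 1.17.8, and Python 3.11.15 (matplotlib 3.10.9, pandas 2.3.3) for figures. A signal is a probe-set value, and genes are not ranked by it.

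The 36 genes and the other lists were chosen with earlier results of these data known. Every array's signal is given for genes called in any comparison and for Col1a1, Col3a1, Acta2, Timp1, Des, Lrat and Tgfb1. Of the other lists, at most 4 genes past the adjusted p with a group mean above 1000 are named, and defining markers of cell types. Alternatives were the values as deposited, quantile normalization, a pseudocount of 100, the mean of the probe sets, all probe sets in 1 fit, no dim genes, no intensity trend, array weights, 2 groups at a time, the replicate number as a block, Dunnett comparisons, and removal of arrays.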

Additional observations from a re-analysis of the deposited data

Results flagged for a closer look

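In 105 groups of 5 arrays, 35 genes in 3 groups, the highest or lowest array was tested for its distance from the others, relative to the range of its group. It passed Dixon's critical value of 0.71 in 7, and chance flags about 1 in 20 groups. XKA-H replicate 1 was the lowest of its group for Col1a1, with a signal of 70, and the highest for Col4a1, with 10660. C57BL/6J replicate 1 was the lowest for Thbs1, with 314, and for Lrat, with 3520, although it was the highest of its group for 25 of the 35 genes. KKAy model replicate 3 was the lowest for Col1a1, with 541, replicate 1 the lowest for Tgfb1, with 641, and replicate 5 the highest for Des, with 1691.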

How the results depend on the processing

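The count of the 35 genes called between untreated KKAy and C57BL/6J mice was 6. It became 3 with the mean of the probe sets of a gene (Col4a1, Acta2 and Lox were lost), 1 with the methods' Dunnett comparisons after adjustment across genes (Rgs5 was left), and 4 to 8 without 1 array, the highest without C57BL/6J replicate 1 and the lowest without KKAy model replicate 4 or C57BL/6J replicate 4. Between XKA-H and untreated KKAy mice it was 0, as in every run without 1 array. It became 1 after quantile normalization (Rgs5), beside 113 of all 18193 genes. With Dunnett comparisons before adjustment it became 4 (Rgs5, Col3a1, Col4a1 and Col5a2), beside 944 of all genes. Between XKA-H and C57BL/6J mice it was 3, and became 0 with the mean of the probe sets, 5 with array weights and 1 to 4 without 1 array, with 1 left without XKA-H replicate 2 or 3. The causes were not tested. The values as deposited call 4 genes between the strains, 3 higher and Mmp14 lower. There the median of all genes was -0.04 in place of 0.15, and that of the 35 genes 0.04 in place of 0.23. No called difference changed its sign under any alternative. Over all genes, the counts ran from 1379 to 3563 between the strains, where 2366 were called, from 0 to 944 between XKA-H and untreated KKAy mice, where 32 were, and from 828 to 1879 between XKA-H and C57BL/6J mice, where 1361 were, 1006 higher and 355 lower, with 703 and 780 in the values as deposited and 1020 and 805 after quantile normalization.

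The labels state no pairing of mice by replicate number, and none was seen over all genes. Over 15 pairs of arrays with the same number, deviations from the group means correlated from -0.04 to 0.09, beside -0.08 to 0.13 for other pairs. Such correlations cannot show an effect of the number that is limited to few genes. With the number as a block the counts stayed at 6, 0 and 3. Lox, Loxl1 and Col1a1, near or below the array median, had SEs of 0.69, 0.62 and 0.58, and Ngfr and Des 0.68 and 0.61, against a median of 0.29 over the 35 genes. Signal over background was not measured here.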
